A study of Mus musculus with 45 samples.

Results

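Tuft cell genes were followed mouse by mouse in the colonic epithelium of lean, obese and formerly obese mice. The 9 genes, Dclk1, Trpm5, Pou2f3, Gfi1b, Avil, Sh2d6, Alox5ap, Ptgs1 and Gnat3, were picked by name as genes that mark tuft cells, with earlier results of these data known. Their entries were found by symbol among the 24918 entries of the RNA-seq count table. Of these genes, 8 had an entry, and the expression of Sh2d6 was not analysed here. Gfi1b fell below the filter on low counts, so that 7 genes were tested among the 12961 genes that passed it.

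The study compared 3 diet regimens in male C57BL/6 mice (C57BL/6J in the methods of the study) that entered the diets at 6 weeks of age, with 5 mice in each group. Control mice (LF) were kept on a diet with 10% fat for 20 weeks, and obese mice (HF) on a diet with 60% fat for 20 weeks. Formerly obese mice (HFLF) were given the 60% diet for 15 weeks and then the 10% diet for 5 weeks. All mice shared the strain, the sex and the age at which RNA was taken, and the epithelium of the whole colon was released with EDTA, so each value is an average over all cells released from 1 mouse.

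Tuft cells are rare epithelial cells with a bundle of stiff microvilli. They sense the contents of the gut lumen through parts of the taste transduction cascade, and they release interleukin 25, acetylcholine and lipid mediators made from arachidonic acid. The transcription factor POU2F3 is required for their formation. In whole-epithelium RNA, fewer tuft cells and less RNA per tuft cell cannot be told apart.

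Library totals ranged from 15230391 to 22762095 counts, with the deepest library in the formerly obese group (HFLF3). Levels are given as CPM, in which each count is taken relative to the TMM-scaled total of its library, with scaling factors from 0.972 to 1.02. No pair of replicates was close enough to be a repeated deposit of the same library, since the closest of 30 pairs had a chi-square of 5.66 per degree of freedom. The labelled tissue fitted its markers, because the 6 general epithelial genes summed to between 13411 and 15867 CPM in every mouse, while 6 smooth muscle genes stayed between 0.223 and 2.70 CPM.

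Per kilobase of the longest curated RefSeq transcript, and averaged over the 15 libraries, Trpm5 had the highest level of the 8 genes at 3.80 ± 0.683 CPM per kb (SD). Avil followed at 2.88 ± 0.540, Alox5ap at 2.84 ± 0.680 and Dclk1 at 2.57 ± 0.401 CPM per kb. These 3 neighbours differed by less than the spread between libraries. Gnat3 at 1.2 ± 0.362, Pou2f3 at 1.08 ± 0.275 and Ptgs1 at 0.839 ± 0.164 CPM per kb formed a lower tier, and again each differed from the next by less than its spread. Gfi1b stood lowest at 0.212 ± 0.102 CPM per kb. The order depended on the gene model, since per kilobase of all annotated exons Dclk1 had 1.49 and Ptgs1 only 0.194 CPM per kb.

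Among the sensing genes, Trpm5 encodes the calcium-activated cation channel at the end of the taste cascade. Its level was 17.5, 12.9, 18.1, 11.9 and 12.0 CPM in the control mice, 16.7, 15.0, 16.6, 15.1 and 18.1 CPM in the obese mice, and 16.7, 23.2, 17.9, 19.6 and 18.7 CPM in the formerly obese mice. Control mice split into 2 at the level of the other groups and 3 below every other mouse, and 3 of the 5 formerly obese mice lay above every control mouse. Group means were 14.5 ± 3.06, 16.3 ± 1.29 and 19.2 ± 2.46 CPM (SD, n = 5 each) for control, obese and formerly obese mice. Trpm5 rose in formerly obese against control mice by a log2 fold change of 0.41 ± 0.12 (SE; edgeR quasi-likelihood test with Benjamini-Hochberg adjustment over all genes tested, adjusted p = 0.0902). Calls required a fold change above 1.2 together with a p-value under 0.01 and an adjusted p under 0.25, which are the cutoffs of the study. By that rule 3.72% of the 12961 genes were called in this comparison, 1.85% of them as higher. The call was lost when control mouse LF2 (log2 0.37), LF4 (0.34) or LF5 (0.35) or formerly obese mouse HFLF2 (0.33) was left out.

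Gnat3 encodes the alpha subunit of gustducin, the G protein of taste cells. Its level was 1.25, 1.18, 1.36, 0.800 and 1.22 CPM in control mice, 0.943, 0.978, 1.24, 2.12 and 1.08 CPM in obese mice, and 1.40, 2.01, 2.00, 1.86 and 1.70 CPM in formerly obese mice. All 5 formerly obese mice lay above all 5 control mice, an arrangement found for 1.75% of genes tested. Of the obese mice, 4 lay within the control range, and HF4 had the highest value of all. The log2 fold change of formerly obese against control mice was 0.63 ± 0.23 and missed the call (edgeR adjusted p = 0.164). It passed the rule without HFLF1 (0.70) and when obese mice were kept out of the fit (0.63). These levels rested on 13 to 45 counts per library.

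Of the genes for lipid mediators, Ptgs1 encodes cyclooxygenase 1, which makes the precursor of the prostaglandins. It had 2.12, 1.51, 2.60, 2.03 and 2.19 CPM in control mice, 1.95, 2.20, 2.18, 2.25 and 2.70 CPM in obese mice, and 2.56, 3.38, 2.89, 2.96 and 2.54 CPM in formerly obese mice. The lowest formerly obese mouse lay below only 1 control mouse (LF3). With a log2 fold change of 0.45 ± 0.16 against control mice, its unadjusted p of 0.0102 lay just outside the 0.01 cutoff (edgeR adjusted p = 0.144). The gene passed the rule without LF3 (0.54), HFLF1 (0.49) or HFLF5 (0.49), and also with median-of-ratios size factors or a filter of at least 10 counts in every library (0.45 in both). Alox5ap, whose product presents arachidonic acid to 5-lipoxygenase for leukotriene synthesis, ranged from 2.06 to 3.91 CPM in control, 2.01 to 3.73 CPM in obese and 2.45 to 4.20 CPM in formerly obese mice. The 3 ranges overlapped almost fully, and the log2 fold change of formerly obese against control mice was 0.18 ± 0.21 (edgeR adjusted p = 0.715).

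Both transcription factors were measured at low counts. Pou2f3 had 2.74, 3.01, 2.98, 2.09 and 1.87 CPM in control mice, 1.76, 2.69, 2.54, 2.37 and 2.52 CPM in obese mice, and 3.20, 4.39, 3.47, 3.29 and 2.04 CPM in formerly obese mice. In the last group 4 mice lay above every control and every obese mouse, while HFLF5 lay among the lowest. The log2 fold change was 0.37 ± 0.20 against control mice (edgeR adjusted p = 0.363) and 0.46 ± 0.20 against obese mice (edgeR adjusted p = 0.313). Without HFLF5, the difference from obese mice was 0.59 on the log2 scale and passed the call rule.

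Gfi1b, a zinc-finger repressor, was covered by 8, 3, 9, 3 and 4 counts in control mice, 4, 4, 4, 8 and 2 counts in obese mice, and 12, 10, 8, 9 and 10 counts in formerly obese mice. As CPM these were 0.339 ± 0.176, 0.270 ± 0.139 and 0.548 ± 0.131 (SD, n = 5), with overlap between all groups. The ratio of formerly obese to obese mice was 2.03 (exact two-sided permutation test, p = 0.0238, adjusted over the 3 comparisons p = 0.0714), and that to control mice 1.62 (exact permutation p = 0.0714, adjusted p = 0.107). The ratio of obese to control mice was 0.797 (exact permutation p = 0.484), and the smallest p that 5 mice against 5 allow is 0.00794. Without HFLF1 the ratio to obese mice was 1.89 (exact permutation p = 0.0556). Without LF3 the ratio to control mice was 1.93 (exact permutation p = 0.0476).

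Dclk1 encodes a kinase that binds microtubules and is a widely used tuft cell marker in the mouse gut. It had 21.7, 19.4, 21.9, 15.5 and 16.0 CPM in control mice, 21.3, 17.1, 19.6, 19.3 and 22.0 CPM in obese mice, and 20.5, 27.1, 22.2, 26.1 and 22.1 CPM in formerly obese mice. All but 1 of the formerly obese mice (HFLF1) lay above every mouse of the other groups. Group means were 18.9 ± 3.04, 19.8 ± 1.93 and 23.6 ± 2.87 CPM. Dclk1 rose in formerly obese against control mice by 0.32 ± 0.11 on the log2 scale (edgeR adjusted p = 0.132). That call was lost without LF2 (0.33), LF4 (0.26), LF5 (0.27), HFLF2 (0.27) or HFLF4 (0.28), and with the GC trend of each library removed (0.29). It was also lost with upper-quartile scaling (0.31) and when obese mice were kept out of the fit (0.32).

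Avil encodes advillin, an actin-binding protein of the tuft cell's microvilli. Its level was 7.29, 7.53, 11.0, 6.28 and 7.14 CPM in control mice, 8.24, 8.43, 9.03, 6.80 and 9.19 CPM in obese mice, and 8.45, 11.3, 9.48, 11.6 and 9.33 CPM in formerly obese mice. Formerly obese mice lay above all control mice other than LF3, which stood apart from its group. The log2 fold change against control mice was 0.35 ± 0.14 (edgeR adjusted p = 0.203), and without LF3 it was 0.50 and passed the call rule.

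**Figure D1:**
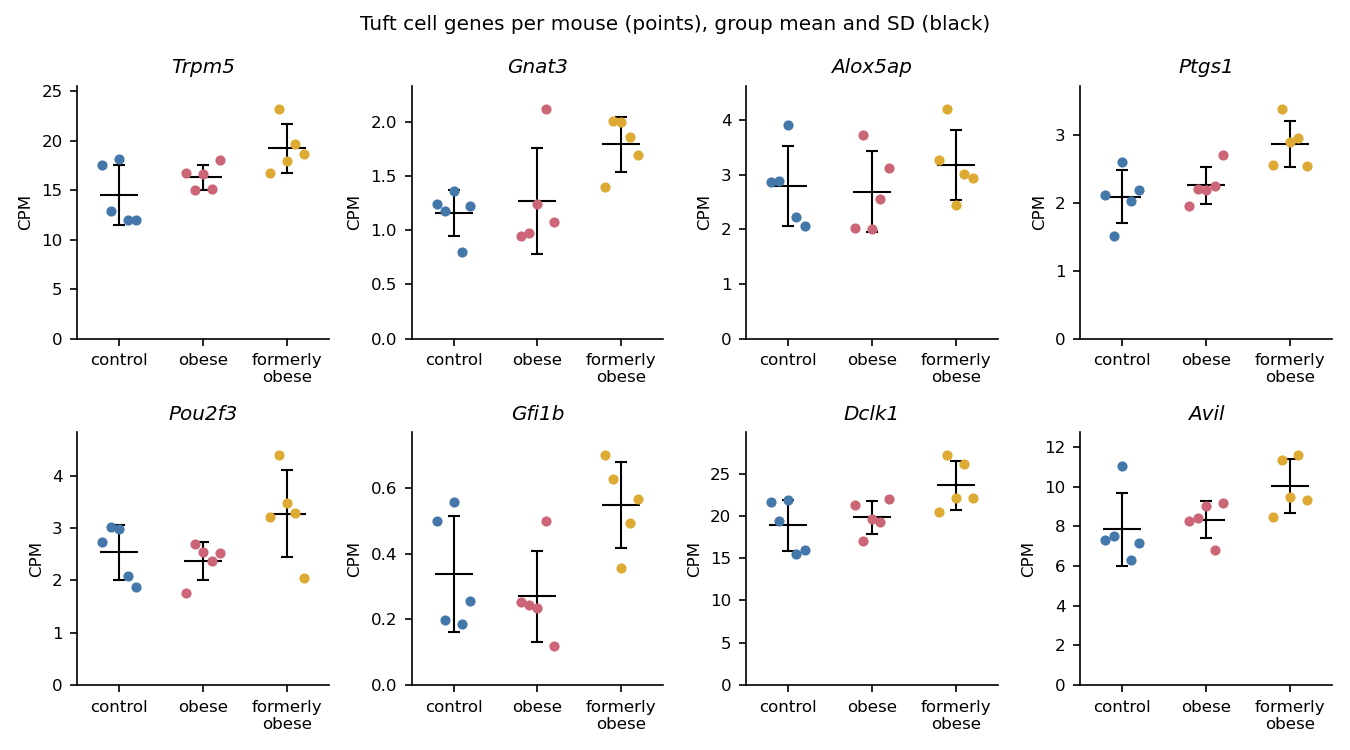
Level of each of the 8 measured tuft cell genes in CPM (vertical axes, from 0) for the 5 control, 5 obese and 5 formerly obese mice; points are mice, black bars the group mean with its SD. The Gnat3 points of formerly obese mice, from 1.40 to 2.01 CPM, all lie above those of control mice, while Alox5ap overlaps across groups.

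Across the genes, 2 of the 7 tested rose in formerly obese against control mice, Dclk1 and Trpm5, and none fell. Over all genes tested, 1.85% were called higher and 1.87% lower in that comparison. The log2 fold changes of the 7 genes were all above 0, from 0.18 to 0.63 with a median of 0.37, beside a median of 0.00 over all genes and 49.8% of genes above 0. An unadjusted p under 0.05 was reached by 5 of the 7 genes, beside 16.7% of all genes. Gfi1b and Sh2d6 are not in these counts. The 7 genes also varied together among mice of the same group, as described below, so they are not separate results. No gene of the 7 had an adjusted p under 0.05, a level that 2.18% of genes reached.

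In obese against control mice, where 1.58% of genes were called, 0 of the 7 passed the rule with edgeR and 0 with DESeq2, and 0 had an unadjusted p under 0.05, beside 10.9% of all genes. Log2 fold changes ran from -0.09 ± 0.20 for Pou2f3 to 0.17 ± 0.12 for Trpm5, with a median of 0.09. In formerly obese against obese mice, where 2.65% of genes were called, again 0 of the 7 passed with edgeR and 0 with DESeq2, while 4 had an unadjusted p under 0.05, beside 13.4% of all genes. These 4 were Gnat3 (log2 0.50 ± 0.22), Pou2f3 (0.46 ± 0.20), Ptgs1 (0.34 ± 0.16) and Dclk1 (0.25 ± 0.11). Gnat3 passed the rule without HF4, at 0.75 on the log2 scale. Each group served in a pair of comparisons, so the 3 sets of fold changes are not independent of one another.

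**Figure D2:**
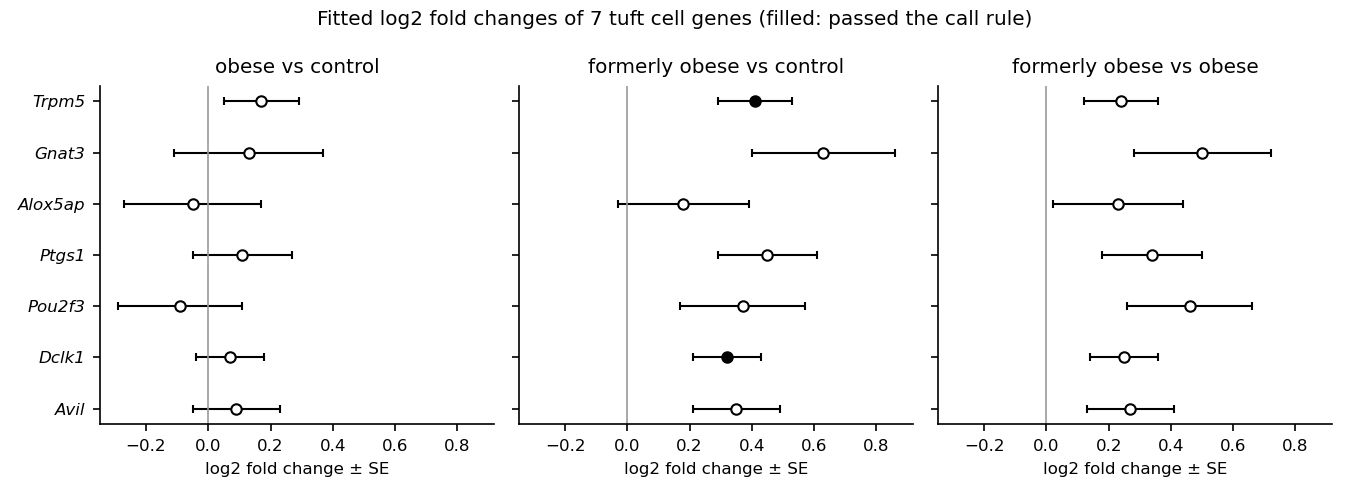
Fitted log2 fold change with its SE (horizontal axes) of the 7 tested genes in each of the 3 comparisons; filled points passed the call rule. Obese against control values lie between -0.09 and 0.17, and formerly obese against control values between 0.18 and 0.63, with Trpm5 and Dclk1 filled.

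Summed over the 8 entries, tuft cell genes made up 55.9, 48.6, 62.4, 41.0 and 42.7 CPM in control mice, 53.2, 50.3, 53.4, 51.0 and 58.8 CPM in obese mice, and 56.8, 76.3, 60.7, 69.0 and 59.8 CPM in formerly obese mice. The groups overlapped, with LF3 above 3 of the formerly obese mice. Immune cell genes, which would show leukocytes left in the epithelium, were also detected, and their 15 entries summed to between 25.5 and 47.2 CPM in control, 35.3 and 67.9 CPM in obese and 29.8 and 59.8 CPM in formerly obese mice. None of that list was at 0 in every library. Of its 10 genes tested, 0 were called in formerly obese against control mice by edgeR, 0 had an unadjusted p under 0.05, and the median log2 fold change was 0.24. In formerly obese mice the highest 2 tuft cell sums, in HFLF2 and HFLF4, came with the highest 2 immune sums, 54.8 and 59.8 CPM. The same held in control mice for LF1 and LF3, with immune sums of 47.2 and 40.1 CPM. Among obese mice HF5 had the highest sum of both lists. Of the 4 fibroblast genes tested 0 were called by edgeR and 2 had an unadjusted p under 0.05, with a median log2 fold change of 1.09. Fibroblast sums ran from 2.34 to 10.9 CPM in control, 6.78 to 17.4 CPM in obese and 6.02 to 30.7 CPM in formerly obese mice. The 30.7 CPM was that of HFLF3 alone, and the next formerly obese mouse had 13.2 CPM. Mast cell genes and platelet genes, which share members of the eicosanoid pathway with tuft cells, had 0 calls among 4 and 2 genes tested, 0 genes at an unadjusted p under 0.05, and medians of -0.24 and -0.07. The part of these cells in the tuft cell values was not tested.

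Genes of other epithelial cells and of gut position also differed between these groups. The colonocyte list, genes of mature absorptive cells, had 3 of 7 genes higher in formerly obese against control mice, beside 1.85% of all genes. They were Slc26a3 (log2 0.41), Krt20 (0.55) and Car4 (0.34). The call of Krt20 was lost without LF1 (0.48) and that of Slc26a3 without LF5 (0.36) or HFLF5 (0.33). The posterior Hox list, homeobox genes whose level follows position along the gut, had 7 of 10 genes lower, beside 1.87% of all genes. Of these 7, Hoxb13 (log2 -0.36), Hoxd13 (-0.52) and Hoxd9 (-0.89) kept the call without each mouse in turn. The call of Hoxa10 (-0.31) was lost without LF2 (-0.23), and that of Hoxa13 (-0.31) without LF1, LF2, HFLF1 or HFLF3 (-0.31 to -0.23) and with the GC trend removed (-0.14). Hoxd10 (-0.51) and Hoxd11 (-0.45) each lost the call in 7 of 10 omissions, those of LF1, LF2, LF3, LF5, HFLF1, HFLF3 and HFLF5, with values from -0.53 to -0.40 and from -0.45 to -0.36. Both also lost it with obese mice kept out of the fit (-0.50 and -0.45), and Hoxd10 with the GC trend removed (-0.50). Its 11 entries summed to between 587 and 693 CPM in control and 457 and 559 CPM in formerly obese mice. Neither the goblet cell list (8 genes tested) nor the stem cell list (4 genes tested) had a call. Of 9 enteroendocrine genes tested, 0 were called in formerly obese against control mice. Against obese mice 2 colonocyte genes were higher, and 2 posterior Hox genes and 1 enteroendocrine gene were lower, where 2.65% of all genes were called. In obese against control mice 1 posterior Hox gene was lower, where 1.58% of all genes were called. Whether the makeup or the position of the tissue had a part in the tuft cell values was not tested.

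Further genes of tuft cells were followed in 5 lists that together held 56 genes, of which 44 were tested. In formerly obese against control mice 4 of the 44 were higher (9.09%, beside 1.85% of all genes) and 0 lower, and the median log2 fold change was 0.07. In obese against control mice 0 were called by edgeR and 4 had an unadjusted p under 0.05, beside 10.9% of all genes. In formerly obese against obese mice 2 were higher (4.55%, beside 1.23% of all genes). An unadjusted edgeR p under 0.05 was reached by 11 in formerly obese against control mice, beside 16.7% of all genes. Against obese mice 12 reached it, beside 13.4% of all genes. The lists were chosen with earlier results of these data known, so these shares describe the lists and test nothing.

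Of the taste signalling list, 1 of 8 tested genes was called. Rgs13, a regulator that shuts off G protein signals, rose from 5.76 ± 0.935 CPM in control and 6.20 ± 0.742 CPM in obese mice to 8.23 ± 1.04 CPM in formerly obese mice. Its log2 fold change was 0.51 against control mice (edgeR adjusted p = 0.0419) and 0.41 against obese mice (edgeR adjusted p = 0.152). Against control mice the call held without each mouse in turn. Against obese mice it was lost without HF1 (0.39), HF2 (0.41), HF3 (0.35), HFLF2 (0.35), HFLF4 (0.38) or HFLF5 (0.42). Itpr3 and Trpm4, the most abundant genes of the list at 364 and 358 CPM, are used throughout the epithelium and were not called. Plcb2, the phospholipase of the taste cascade, was at 0.24 ± 0.21 on the log2 scale (edgeR adjusted p = 0.602).

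Of the structure and kinase adaptor list, 3 of 19 tested genes were called, each of them higher in formerly obese than in control mice. The list was mixed, since 12 of the 19 log2 fold changes in that comparison were above 0. They ran from -0.52 for Ly6g6f to 0.72 for Ccdc129, and Lrmp was lower at -0.23 (edgeR unadjusted p = 0.0187). Sh2d7, an SH2-domain adaptor, was at 6.70 ± 0.977 CPM in control and 9.65 ± 0.877 CPM in formerly obese mice, a log2 fold change of 0.52 (edgeR adjusted p = 0.0260). Kctd12, an auxiliary subunit of GABA-B receptors, went from 42.2 ± 7.13 to 60.7 ± 5.77 CPM, also 0.52 on the log2 scale (edgeR adjusted p = 0.0209). Chn2, a GTPase-activating protein for Rac, went from 21.0 ± 4.21 to 29.1 ± 3.10 CPM, or 0.47 on the log2 scale (edgeR adjusted p = 0.0615). These 3 calls held without each mouse in turn. Only Sh2d7 of the list was also called against obese mice, by 0.34 on the log2 scale, and that call was lost without HF1 (0.29), HF2 (0.33), HFLF2 (0.29) or HFLF5 (0.35). The 2 most abundant genes of the list, Vil1 and Krt18, are general epithelial genes and were not called. They were not flat, since in some comparisons they missed the rule by the fold change cutoff only. Vil1 was at 0.20 in formerly obese against control mice (edgeR adjusted p = 0.0618). Krt18 was at -0.25 in obese against control mice (edgeR adjusted p = 0.105) and at 0.22 in formerly obese against obese mice (edgeR adjusted p = 0.1).

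In the other 3 lists, 0 genes were called in any comparison with edgeR. Of the eicosanoid list Hpgds, the hematopoietic prostaglandin D synthase, was at 0.33 ± 0.16 and Alox5 at 0.25 ± 0.12 on the log2 scale in formerly obese against control mice, and only Pla2g4a, at -0.19 ± 0.06, had an unadjusted p under 0.05. Of the list for the type 2 circuit and acetylcholine, Chat, the enzyme that makes acetylcholine, was at 0.63 ± 0.32 against control and 0.84 ± 0.32 against obese mice (edgeR adjusted p = 0.332 and 0.253) on 5 to 21 counts per library. Il25 had between 0 and 7 counts in a library, and Il13 had 0 counts in all 15. Of 8 tested regulators, Sox9 and Atoh1, which other lineages of the epithelium also use, were the most abundant, and only Sox9 (log2 -0.20 ± 0.09) had an unadjusted p under 0.05 against control mice.

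**Figure D3:**
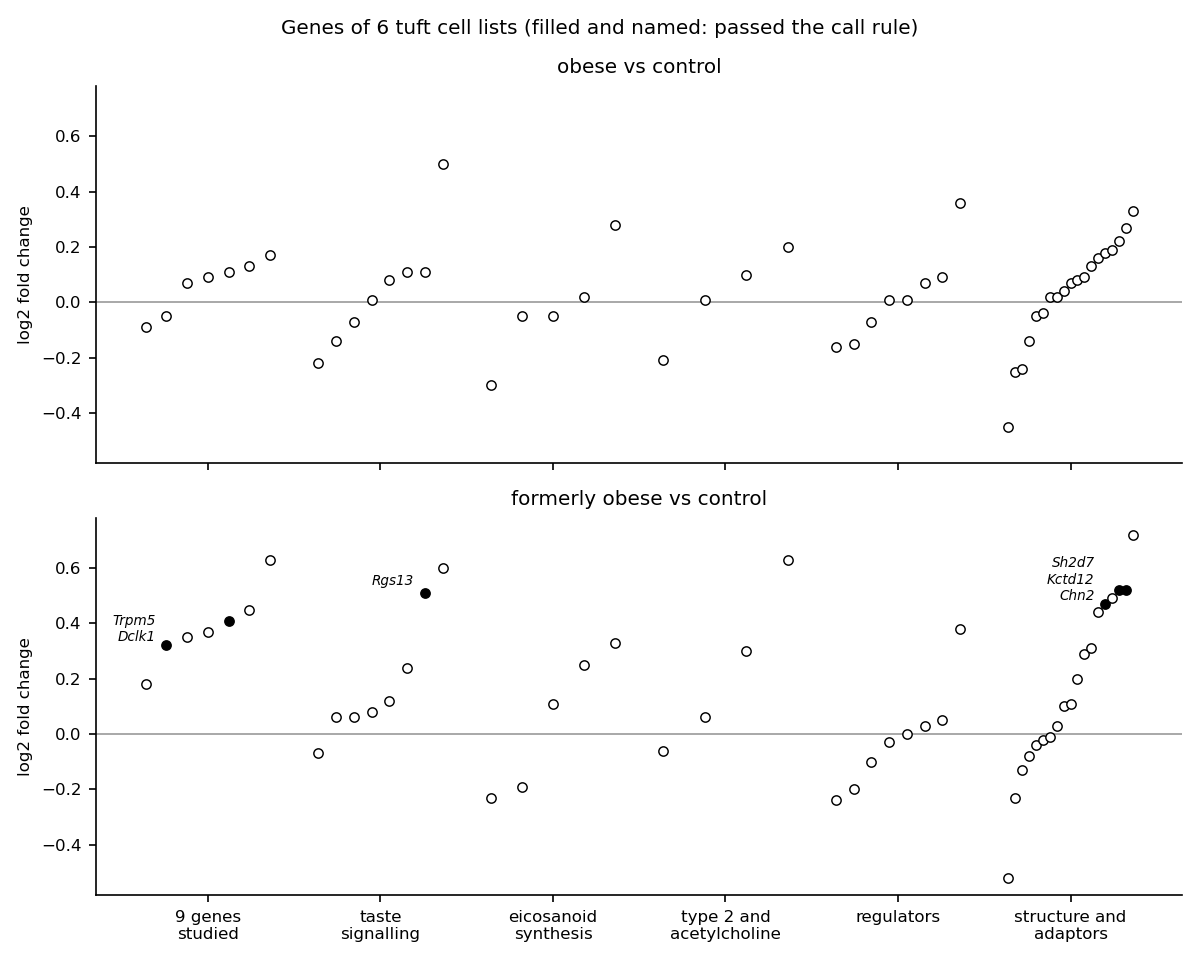
Fitted log2 fold changes (vertical axes) of the tested genes in 6 tuft cell lists, ordered by value within each list, for obese against control (top) and formerly obese against control mice (bottom); filled and named points passed the call rule, named from the bottom up in order of value. The top panel has 0 filled points and the bottom panel 6, all above 0.

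The genes also varied together among mice of the same group. With group means removed, the log2 CPM of the 7 tested genes correlated over the 15 libraries with a median Pearson r of 0.46 across 21 pairs, from 0.10 to 0.90, and all 21 were above 0. The points share the library and its scaling, so no p is given. Dclk1 and Trpm5 were the closest pair (r = 0.90, Spearman rho = 0.91, and r = 0.87 without LF4 and LF3). Avil followed both (r = 0.74 with Trpm5 and 0.69 with Dclk1), and Pou2f3 was closest to Alox5ap (r = 0.62). Gnat3 had the weakest relations, from 0.10 with Alox5ap to 0.36 with Dclk1, and its r with Avil turned from 0.13 to -0.26 without LF3 and LF4. The median r was 0.29 without LF3 and 0.32 without HFLF2, so it rested in part on these mice.

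**Figure D4:**
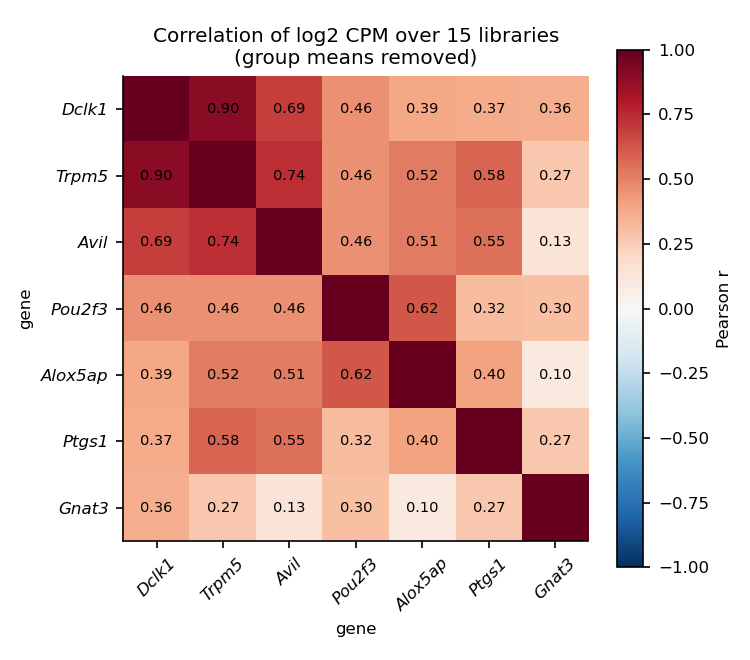
Pearson correlation of log2 CPM, with group means removed, for each pair of the 7 tested genes over 15 libraries; colour runs from -1 (blue) to 1 (red) and the numbers are r. Dclk1, Trpm5 and Avil form the block with the highest values (0.69 to 0.90), and the Gnat3 row holds the lowest.

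Among 12246 genes with at least 1 CPM, the gene most like the mean of the tuft cell genes over the 15 libraries was Kctd12 (r = 0.91, Spearman rho = 0.82, and r = 0.81 without LF3 and HFLF2). It was followed by Sec16a and Pphln1 (r = 0.88 each), Dhx36 (0.87), Fyb, Nlk, Gpalpp1 and Msn (0.86 each), and Atp8b2 and Ddx31 (0.85 each). Kctd12 and Fyb belonged to the tuft cell lists above, and the other 8 to none of them. An r over 0.5 was found for 13 of 39 genes of those lists (33.3%) and for 1233 of the 12246 genes (10.1%). It was also found for 7 of 9 immune genes, among them Cd3g (0.77) and Ptprc (0.76). An r over 0.5 was thus not particular to the tuft cell lists. How far genes of those lists, such as Fyb, Pik3r5 (0.84) and Inpp5d (0.83), followed immune cells was not tested.

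DNA methylation near these genes was read from the list of differentially methylated regions (DMRs) between obese and control mice. Each entry has a position and a direction, with no value per mouse, and hyper stands for more methylation in obese mice and hypo for less. Within 20 kb of the 9 genes lay 8 DMRs, at 4 genes (Dclk1, Alox5ap, Pou2f3 and Trpm5). Of all 24918 entries, 25% had a DMR within that distance, and of genes with a span from 0.5 to 2 times that of Dclk1 56.5% did. Set by the same rule, the shares for genes of like span were 35.2% for Pou2f3 and 23.8% for both Alox5ap and Trpm5.

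Dclk1 (chr3:55242526-55539068 of mm10, plus strand) had 3 DMRs, all of them intronic. A hypo-DMR of 4 bases at chr3:55243526-55243529 began 1000 bases past the start of the gene, and a hyper-DMR of 33 bases at chr3:55243613-55243645 began 1087 bases past it. The pair is shown because regions of opposite direction lay so close together near the start of the gene, and the capitals mark the 2 regions in the plus strand of the GRCm38 reference from chr3:55243466 to 55243705.
Dclk1 intron: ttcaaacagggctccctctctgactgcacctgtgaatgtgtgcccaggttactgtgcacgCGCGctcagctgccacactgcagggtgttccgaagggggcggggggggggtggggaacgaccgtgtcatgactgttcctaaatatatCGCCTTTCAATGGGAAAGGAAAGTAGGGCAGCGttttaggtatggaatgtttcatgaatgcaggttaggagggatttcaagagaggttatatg
The third, a hyper-DMR of 45 bases, lay 94417 bases past the start. The level of Dclk1 in obese against control mice was 0.07 ± 0.11 on the log2 scale (edgeR adjusted p = 0.869), with no call.

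Pou2f3 (chr9:43123939-43205755, minus strand) had a hypo-DMR of 22 bases at chr9:43210390-43210411, 4635 bases upstream of the gene, and a hyper-DMR of 7 bases 9374 bases beyond its end. The upstream region is shown as the one that lies before the start of the tuft cell factor, in the plus strand from chr9:43210330 to 43210471, with the DMR in capitals and 7 CG in the window.
Pou2f3 upstream: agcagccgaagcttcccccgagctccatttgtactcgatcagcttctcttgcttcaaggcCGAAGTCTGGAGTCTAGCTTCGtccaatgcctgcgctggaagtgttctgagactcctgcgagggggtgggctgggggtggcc
Alox5ap (chr5:149265058-149288047, plus strand) had a hypo-DMR of 28 bases with 3 CG in an intron, 11989 bases past its start, shown here from chr5:149276987 to 149277134. It also had a hyper-DMR of 5 bases in a non-coding part of an exon.
Alox5ap intron: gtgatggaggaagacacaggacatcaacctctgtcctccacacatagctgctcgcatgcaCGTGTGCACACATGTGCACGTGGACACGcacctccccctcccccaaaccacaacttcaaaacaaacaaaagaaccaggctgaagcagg
The hyper-DMR of 161 bases assigned to Trpm5 (chr7:143071529-143094642, minus strand) lay outside the gene, 11456 bases beyond its end. None of the 4 genes was called in obese against control mice, the comparison in which the DMRs were defined.

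**Figure D5:**
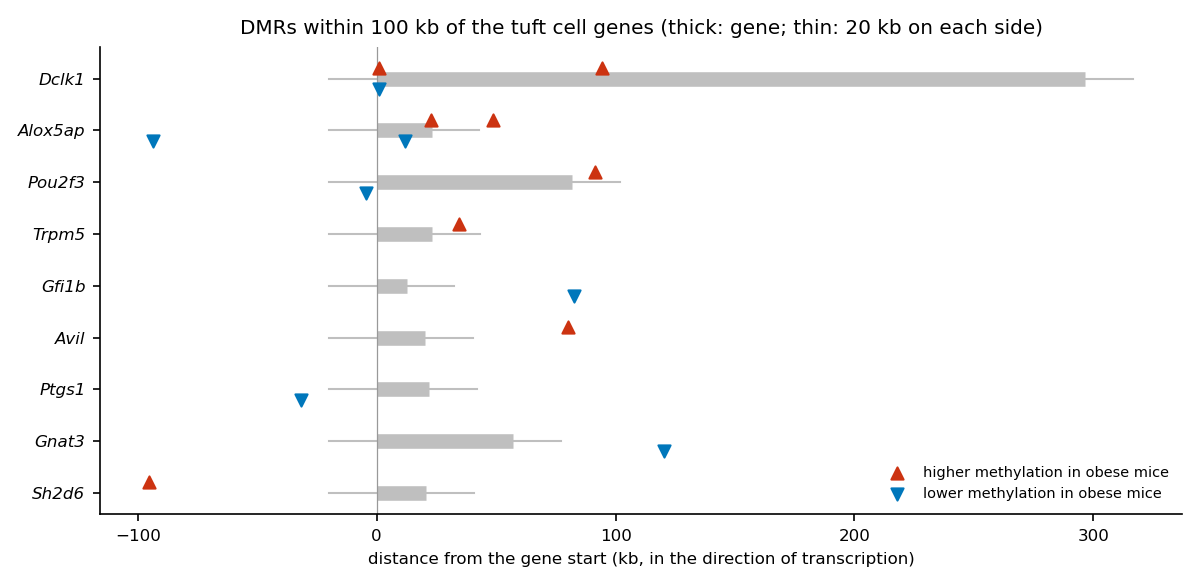
Distance in kb, along the direction of transcription, of DMRs from the start of each of the 9 genes; red triangles are regions with higher and blue ones with lower methylation in obese mice, thick bars the gene and thin bars 20 kb on each side. The pair of opposite regions 1000 and 1087 bases past the start of Dclk1 falls on nearly the same point.

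The promoters were searched for the octamer ATGCAAAT, the sequence that POU2 factors bind. RefSeq promoters (250 bases before to 50 after a start, GRCm38) were at hand for Dclk1, with 2 starts, and for Trpm5, Gnat3, Ptgs1, Gfi1b, Avil and Sh2d6. On either strand the exact octamer was in none of these, and it was in 1.74% of all 32851 promoters. With up to 1 mismatch it was in Gnat3, Gfi1b and Avil, beside 18.6% of all promoters. Avil had 3 such matches, and Gfi1b and Gnat3 had 1 each. The match that lies farthest from the start in each gene is shown in capitals, on the strand of the gene, beginning 84 bases before the start of Gnat3 and 116 before that of Gfi1b and of Avil. The Gnat3 and Avil matches are to the other strand of the octamer, and each is a description of letters, not a site.
Gnat3 promoter: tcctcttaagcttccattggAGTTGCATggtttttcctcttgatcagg
Gfi1b promoter: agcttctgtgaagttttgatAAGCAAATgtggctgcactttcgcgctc
Avil promoter: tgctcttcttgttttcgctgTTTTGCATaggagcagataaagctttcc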

How the data were processed

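RNA-seq was done on colonic epithelium of 5 mice per group. The authors mapped reads of stranded mRNA libraries to mm10 with TopHat2 and deposited raw counts per gene from HTSeq; the strand setting and annotation release were not given in the sources used here. The deposited DMR list (whole-genome bisulfite sequencing, Rao-Scott test by the authors) gives start and end positions, read here from 0, since all 8199 regions then began on a CG. The deposited tables of log2 fold changes and p-values, and bisulfite amplicon values (fractions), were not used.

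Counts were filtered with filterByExpr, scaled by TMM and fitted in edgeR 4.0.16 (R 4.3.3) in 1 quasi-likelihood model of all 15 libraries with the group as term, tested on simulated data. Log2 CPM used a prior count of 2. DESeq2 1.42.0, other scalings and filters, and omission of each mouse were alternatives. Gfi1b was tested by exact permutation. All members of the list and the 10 most similar genes are named. Of the other lists, the genes called in formerly obese against control mice are named, with up to 2 abundant ones. Genes called only in the other comparisons are not all named. A few further genes were chosen after their values were seen. The tuft cell genes and all lists were chosen with earlier results of these data known, and 1 gene of the lists is not reported here. Sequences are from RefSeq, GRCm38.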

Additional observations from a re-analysis of the deposited data

Results flagged for a closer look

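Of 24 sets of 5 mice (8 genes in 3 groups), 2 had a mouse far from the other 4, and chance alone marks about 1 set in 20. Avil in control mouse LF3 was at 11.0 CPM, where the next control mouse had 7.53 and the lowest 6.28 CPM, so that the gap took up 0.737 of the range of the group. Gnat3 in obese mouse HF4 was at 2.12 CPM, where the next obese mouse had 1.24 and the lowest 0.943 CPM, a gap of 0.749 of the range. The cause was not tested in either case.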

How the results depend on the processing

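The count of tuft cell genes called in formerly obese against control mice was 2, and it was 1 (Trpm5) with upper-quartile scaling, with the replicate block and with the GC trend of each library removed, an alternative chosen after seeing the data. It was 3, with Ptgs1 added, under median-of-ratios size factors and under a filter of at least 10 counts in every library, and it was again 2, but Trpm5 and Gnat3, with obese mice kept out of the fit. It was 0 when an adjusted p under 0.05 was required in place of these cutoffs. Leaving out 1 mouse gave 0 to 4 calls, with 0 without LF2, LF4, LF5 or HFLF2 and 4 without LF3 or HFLF1. In formerly obese against obese mice the count was 0, and 0 to 1 with 1 mouse left out, and in obese against control mice it was 0 under every alternative run. Signs of fold changes turned only for obese against control values near 0, with Alox5ap at 0.10 without LF3, 0.03 without HF1 and 0.04 without HF3 (down to -0.20 without HF2), and Gnat3 at -0.13 without HF4 (up to 0.22 without HF1). Same-numbered mice did not pair in general: their correlations ran from -0.23 to 0.33, and at most 2 of 5 exceeded 0.1 in a comparison. The own number was the best match for 2 of 5 in obese against control mice. It was so for 1 in formerly obese against control and 2 in formerly obese against obese mice. Number 2 was among them each time, at 0.20, 0.22 and 0.16. With the replicate block Dclk1 was at 0.33 (edgeR adjusted p = 0.177), and against obese mice Rgs13 (0.41, adjusted p = 0.216) and Sh2d7 (0.34, adjusted p = 0.217) lost their calls. The median pairwise r of 0.46 was 0.29 to 0.54 with 1 mouse left out. A window of 100 kb held 15 DMRs, in place of 8, with a DMR at 9 of the 9 genes beside 56.6% of all genes. With no filter on low counts Gfi1b was at 0.66 against control and 1.00 against obese mice on the log2 scale (edgeR adjusted p = 0.504 and 0.356). Depth limited Gfi1b, with 2 to 12 counts per library, more than the other genes.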
